A study of Mus musculus with 12 samples.

Results

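A list of 46 genes for lysosomal hydrolases and lysosomal membrane proteins was followed in cultures of mouse skull bone cells exposed to medium from a prostate cancer line. The genes were taken by name from the authors' table of RNA fragments per gene, which holds 25511 genes, and all 46 were found and tested. The list was drawn up from measured values, with the response of these cultures to the conditioned medium already known. Values of the medium comparisons are therefore a description, and no p-value is printed for a single member there. Members are still marked as called where they pass a threshold over all genes, which is no independent test of them. Counts of called members are to be read against the share of all genes called in the same comparison.

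Lysosomes are acidic compartments in which cells take apart proteins, glycans, glycosaminoglycans and lipids delivered by endocytosis and autophagy. Most of the soluble enzymes reach them by mannose 6-phosphate receptors, while membrane proteins line the organelle, carry its ions and export the products. Transcription factors of the MiT/TFE family, such as TFEB, are known to raise many lysosomal genes together by binding an E-box-like sequence in their promoters. In bone, lysosomal hydrolases and the proton and chloride transporters of the lysosomal membrane are best known from osteoclasts, the cells that resorb the matrix, whereas the osteoblast lineage makes it.

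The cells were labelled osteoblast-like and came from calvariae, the flat bones of the skull, of neonatal C57Bl/6J mice, freed with collagenase. They were either wild type (WT) or F2rl1 -/-, here called KO, a knockout of the gene for protease-activated receptor 2 (PAR2). After 48 h of preculture, both genotypes were kept for 4 days in complete BRFF-HPC1 medium with 20% fetal calf serum, either unconditioned or conditioned for 48 h by MDA-PCa-2b, a human prostate cancer line. The 12 samples form 4 groups of 3, and libraries are numbered 0 to 2 within a group, as in the deposited table.

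Libraries held 15023994 to 16956754 fragments. In unconditioned medium F2rl1 itself had 33, 33 and 46 fragments in libraries labelled KO. Those labelled WT had fewer, at 25 (libraries 0 and 1 averaged) and 20. In conditioned medium the genotypes overlapped, at 31, 13 and 12 in KO and 14, 23 and 14 in WT. The transcript therefore gives no check of the genotypes, which are given as labelled. For 1 unconditioned sample the title says WT while its genotype field says F2rl1 -/-, and the title was followed. Unconditioned WT libraries 0 and 1 differed by less than counting noise (chi-square 761 over 15477 genes) and were counted as 1 sample, which leaves 2 for that group. Libraries 0 of the KO groups stood apart: chi-square per gene to libraries 1 and 2 was 58.7 and 77.8 in unconditioned medium, against 6.26 between those, and 85.5 and 134.7 against 13.2 in conditioned medium. Conditioned WT library 1 was also apart, at 37.7 and 64.4 to libraries 0 and 2, against 17.6 between those. Osteoblast markers summed to 25161 to 59309 CPM (counts scaled to library size and between libraries), with Col1a1, Col1a2, Sparc and Spp1 the most abundant. Bglap (0 to 13 fragments) and Dmp1 (0 to 5), markers of late stages, were at or near 0. Ibsp (3 to 16), Phex (2 to 30) and Bglap2 (0 to 41) were also scarce. Sp7 was uneven, at 226, 86 and 476 fragments in conditioned WT and 490, 52 and 32 in conditioned KO libraries. Whether replicate samples came from separate animals is not given, so errors and p-values measure the spread between these libraries, which may be technical. Library numbers in the table are not tied to sample titles.

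The comparison of media asks how secretions of the tumour line change the cells. Lysosomal genes took up a larger share of the RNA in conditioned medium. Together the 46 genes held 1.02% to 1.11% of all fragments in the 5 distinct unconditioned libraries and 1.74% to 2.08% in the 6 conditioned ones, with no overlap in either genotype. Log2 differences were largest for Gla in WT and for Neu1 in KO, while Ctsh, Pla2g15 and Ids had negative values in both.

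In WT, 16 of the 46 genes were called higher and 0 lower by edgeR's quasi-likelihood test, where a call is an adjusted p under 0.05 over 13603 genes. Of all genes 1.78% were called there, 1.23% as higher and 0.551% as lower. At an unadjusted p under 0.05 there were 35 members and 2061 of the 13603 genes. In KO, 21 members were called higher and 2 lower, beside 18.3% of all genes, 9.68% as higher and 8.58% as lower. All 16 genes called in WT were also called in KO, which is 16 of the 23 called there. The same overlap over all genes was not counted, and all groups shared an estimate of the spread. Averaged over both genotypes, a value that uses the same libraries again, 34 members were called higher and 2 lower, beside 20.5% of all genes, 10.4% as higher and 10.1% as lower.

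The median log2 difference between media over the 46 genes was 0.70 in WT and 0.49 in KO, against 0.01 and 0.02 over all genes tested. It was positive for 43 members in WT and 40 in KO. Every conditioned WT library lay above every unconditioned one for 38 members and below for 3, where 21.8% and 20.6% of all genes did so. For KO this held for 33 above and 2 below, beside 15.8% and 15.5% of all genes. In both genotypes 32 members were separated upwards and 2, Ctsh and Pla2g15, downwards. How many of all genes were separated in both genotypes was not counted. The WT calls depended on single libraries. Without unconditioned WT library 0 and 1 (merged) or library 2, 0 members were called higher in WT, and without conditioned WT library 0 only Gla was; of all genes, 0.0072%, 0% and 0.0959% were then called higher. Leaving out conditioned WT library 1, conditioned KO library 1 or unconditioned KO library 1 gave 6 members, beside 0.435%, 0.422% and 0.428% of all genes. Leaving out unconditioned KO library 2 gave 8, beside 0.523%, and leaving out conditioned KO library 0 gave 26, beside 3.56%. The WT median stayed between 0.63 and 0.76 in all of these. Without both KO libraries 0, an alternative chosen after seeing the data, 29 members were called higher and 1 lower in WT, beside 11.7% of all genes (5.75% as higher and 5.98% as lower). In KO it then was 26 higher and 4 lower, beside 50.4% of all genes, 25.4% as higher and 25% as lower, and in the average 35 and 3, beside 48.6%, with 24.6% as higher and 24% as lower.

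**Figure D1:**
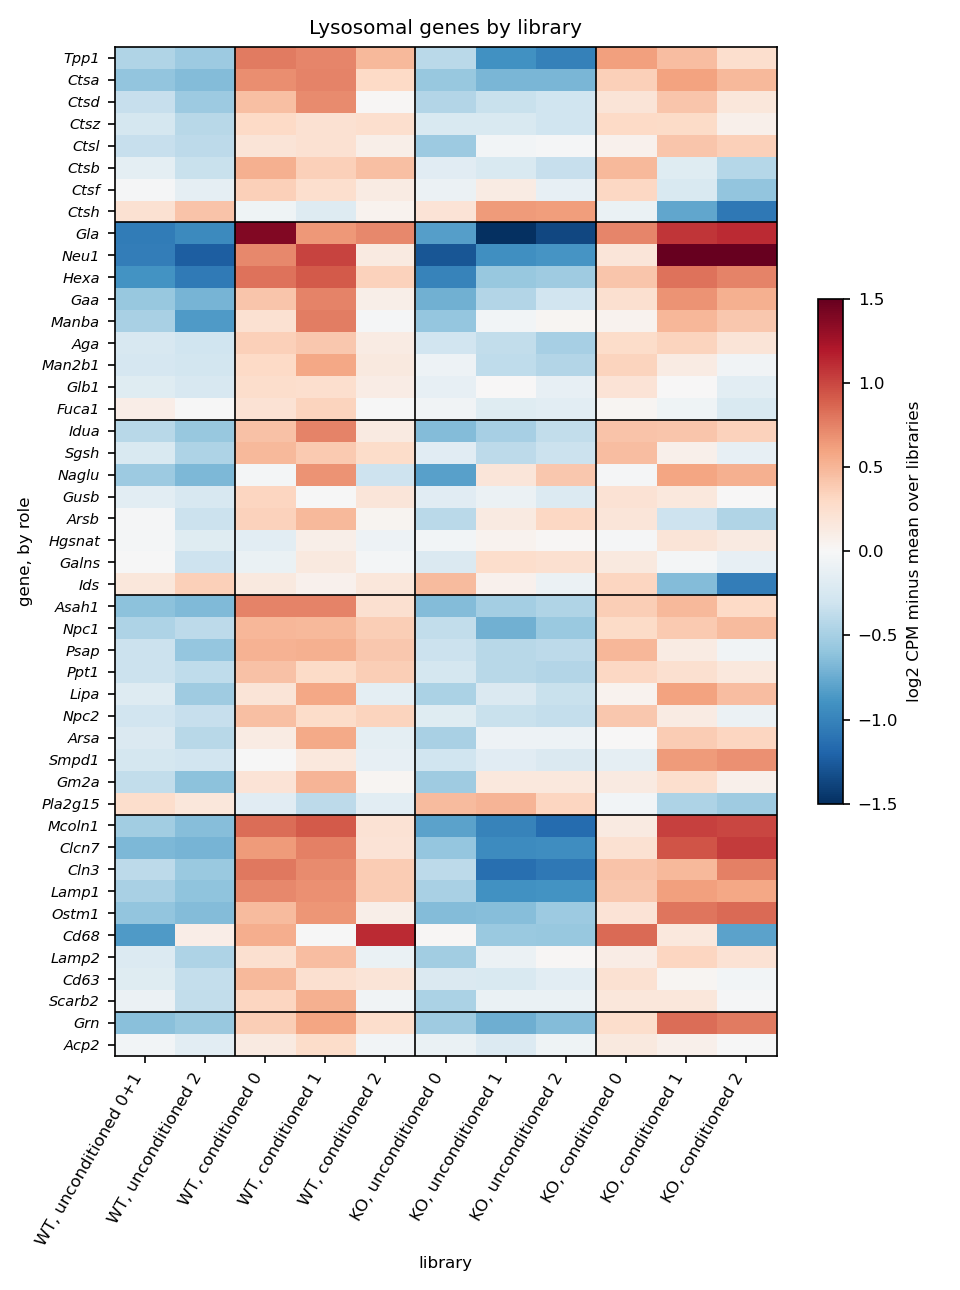
Level of each of the 46 genes in the 11 libraries, as log2 CPM minus the gene's mean over the libraries; rows are grouped by role and columns by group. Most rows pass from blue in unconditioned to red in conditioned libraries, Ctsh and Pla2g15 do the reverse, and Ctsb, Ctsf and Ids are high in conditioned KO library 0 only among the 3 libraries of that group.

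Markers of other cell types were read beside these values, first of macrophages and osteoclasts, which are known for high lysosomal content. The 16 macrophage markers in the table summed to 69.5 to 118 CPM in unconditioned and 61.6 to 160 CPM in conditioned libraries. They overlapped between media in KO, whereas in WT all conditioned libraries were higher (125 to 160 against 82.7 and 118 CPM). Lyz2 was the most abundant of them, with 656 and 763 against 1277, 1209 and 1455 fragments in WT. Log2 differences of Lyz2, Emr1, Fcer1g, Mpeg1 and Tyrobp were positive in both genotypes. Those of C1qa, C1qb, C1qc, Cd14, Cd53, Csf1r and Itgam were negative in both. None of the 14 tested was called in WT or in KO, while in the average Fcer1g (1.22) and Mpeg1 (0.98) were called higher and Cd53 (-0.63) lower. Conditioned KO library 2, the lowest of all at 61.6 CPM, had a lysosomal share of 1.89%, between those of the other two in its group. Their part in the lysosomal result was not tested. Of 11 osteoclast markers, 2 were called higher in both genotypes, Ctsk and Atp6v0d2, and the 11 together summed to 168 to 225 CPM in unconditioned and 305 to 469 CPM in conditioned libraries. Ctsk, which fibroblast-like cells also make, gave most of it, with 1380 to 2232 against 3434 to 7203 fragments. The fusion protein Dcstamp had 0 fragments in every library, Calcr 0 to 3, Ocstamp 0 to 5 and Oscar 3 to 9, and Nfatc1 was not called. The part of such cells was not tested either. The 7 endothelial markers summed to 4.16 to 8.25 CPM in unconditioned and 8.96 to 16.1 CPM in conditioned libraries, with no overlap in either genotype. Of the 4 tested, Kdr (2.29), Tek (1.27) and Vwf (1.54, with only 3 to 32 fragments) were called higher in KO and in the average, and none in WT. Cdh5 was not called in any of these. Pecam1 (1 to 7 fragments), Emcn (0 to 2) and Tie1 (0 to 1) were too scarce to be tested. The osteoblast markers were lower in all conditioned KO libraries, at 25161 to 33726 CPM against 36837 to 59309, and overlapped in WT, at 27278 to 42779 against 37529 and 43396 CPM. Among these, Alpl, the alkaline phosphatase, was called lower in KO (-1.68) and in the average, and Bglap2, with 0 to 41 fragments, higher in both. The part of these markers in the lysosomal result was not tested. The skeletal muscle markers stood out in the merged unconditioned WT library 0 and 1, at 276 CPM, and in conditioned WT library 1, at 211 CPM, against 19.9 to 101 CPM elsewhere. In these bulk samples, fewer cells of a type and less RNA per cell cannot be told apart.

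**Figure D2:**
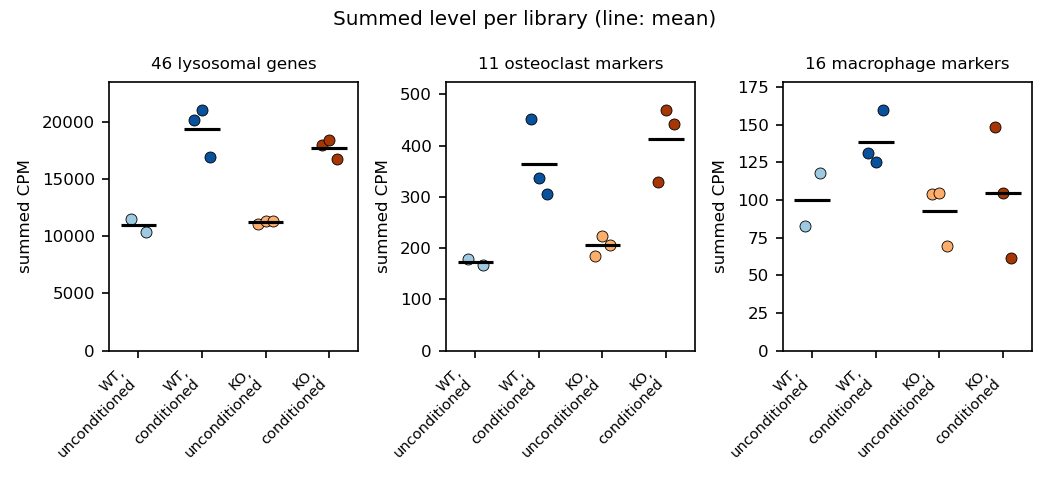
Summed CPM per library of the 46 lysosomal genes, the 11 osteoclast markers and the 16 macrophage markers; points are libraries, lines are group means, and the vertical axes start at 0. The lysosomal sum runs from 10395 to 11512 CPM in unconditioned and from 16722 to 21002 CPM in conditioned libraries, while the macrophage sums overlap between media in KO and not in WT.

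Promoters were read because the members moved together. RefSeq promoter windows (GRCm38.p6, 250 bases before to 50 after a start) were at hand for 39 of the 46 genes, 43 windows in all, and were searched on both strands for the E-box CACGTG, for TCACGTG, and for TCACGTGA, each contained in the next. The E-box was present for 14 of 39 members (35.9%), against 11.7% of 10268 tested genes with a window and 8.09% of all genes in the promoter table. The form of 7 letters was present for 12 members (30.8%), against 6.92% of the tested genes, and the form of 8 letters for 6 (15.4%), against 2.14%. Of the 23 matches, 19 lay within 150 bases of the start. A match is a description of the letters and not a binding site.

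Stretches of the 7 member promoters with more than 1 match are shown because they include all 6 genes with the 8-letter form. Each is read 5′ to 3′ in the direction of the gene, with positions counted from the start site, and capitals mark the longest searched form.
Gla (chrX:134601173-134601253, reverse strand, positions -248 to -168): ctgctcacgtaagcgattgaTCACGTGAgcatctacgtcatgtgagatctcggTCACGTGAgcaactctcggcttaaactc
Ctsa (chr2:164833740-164833804, forward strand, positions -33 to 32): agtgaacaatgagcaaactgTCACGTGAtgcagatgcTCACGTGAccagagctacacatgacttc
Clcn7 (chr17:25133355-25133424, forward strand, positions -36 to 34): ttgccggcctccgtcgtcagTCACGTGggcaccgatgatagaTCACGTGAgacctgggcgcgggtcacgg
Mcoln1 (chr8:3500427-3500500, forward strand, positions -92 to -19): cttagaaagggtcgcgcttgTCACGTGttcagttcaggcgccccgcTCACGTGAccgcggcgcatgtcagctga
Cln3 (chr7:126583331-126583405, reverse strand, positions -169 to -95): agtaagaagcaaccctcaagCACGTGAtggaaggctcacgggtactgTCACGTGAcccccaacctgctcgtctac
Ctsd (chr7:142387899-142388077, reverse strand, positions -250 to -72): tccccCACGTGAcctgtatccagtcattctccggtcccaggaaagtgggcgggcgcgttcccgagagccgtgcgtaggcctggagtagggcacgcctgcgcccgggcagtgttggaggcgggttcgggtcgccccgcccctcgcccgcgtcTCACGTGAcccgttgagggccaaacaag
Lamp1 (chr8:13159079-13159171, forward strand, positions -82 to 11): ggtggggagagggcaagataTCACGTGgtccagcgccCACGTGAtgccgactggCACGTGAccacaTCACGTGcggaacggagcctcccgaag
Gla and Ctsa carried the full 8 letters at both matches, and Lamp1 carried 4 matches of the 7-letter form in the 93 bases shown, none of them extended to 8. Gla, with both matches near the far edge of its window, had the largest log2 difference of these 7 genes in both genotypes.

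Members with the 8-letter form had a median log2 difference between media of 1.23 in WT and 1.49 in KO (n = 6), against 0.62 and 0.45 for the 33 members with a window and without it. With the 7-letter form (n = 12) the medians were 1.09 and 1.05, against 0.60 and 0.46 for the other 27. Of these 12 genes, 10 were separated upwards in both genotypes, as were 32 of all 46 members. Neu1 and Hexa had no match in their windows and were among the members with the largest differences. Outside the list, 682 tested genes had the 7-letter form, and 4.84% of them were called higher in WT and 22.4% in KO. Of 9271 genes without it, 0.744% and 8.59% were. Called lower were 0.147% in WT and 5.43% in KO with the form, against 0.561% and 8.93% without it. Only the 46 members were left out here, so other lysosomal genes remain among these. These medians and shares are given without a test, and the members were chosen from the medium response. Whether any factor acted through these sequences was not tested.

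**Figure D3:**
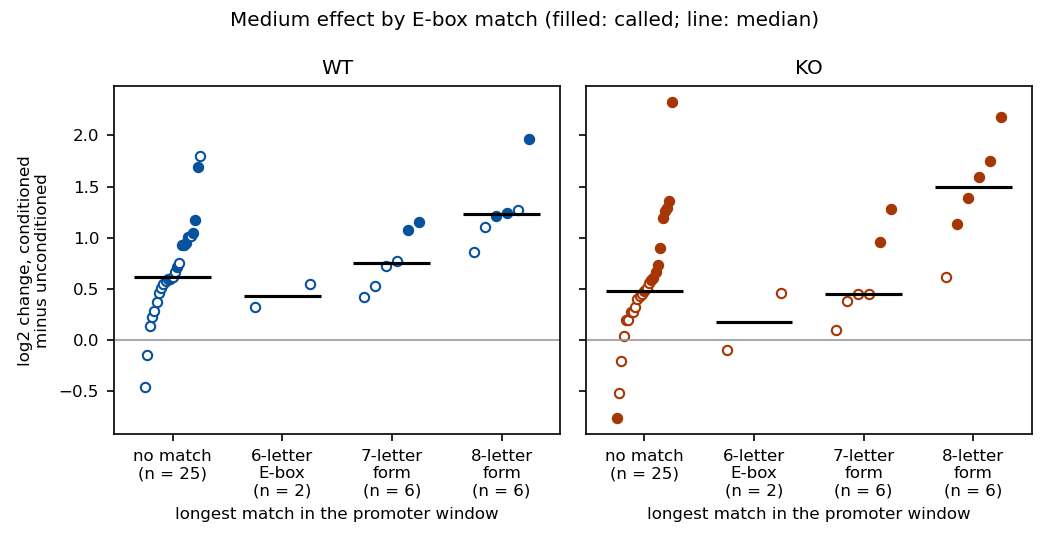
Log2 difference between media for the 39 members with a promoter window, by the longest form of the motif found in it, in WT (left) and KO (right); each point is a gene, filled points were called, and lines are medians. The 6 genes with the 8-letter form sit between 0.86 and 1.96 in WT and between 0.62 and 2.18 in KO, and several genes without a match lie as high.

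Proteases break proteins down to amino acids, and 3 of the 8 in the list were called higher in WT (Ctsa, Ctsz and Tpp1). The same 3 were called higher in KO, where Ctsh was called lower. For these and the following counts by role, 1.23% of all genes were called higher in WT, and 9.68% higher and 8.58% lower in KO. Ctsd, the main aspartic protease, had the highest level of all members per length, with a mean of 1094 fragments scaled to gene length and library size (FPKM, as deposited), against 404 for Ctsl and 310.0 for Ctsb.

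Ctsa is a carboxypeptidase that also protects the sialidase and a galactosidase in a complex. It stood at 264 and 255 CPM in unconditioned and 647, 669.7 and 489.5 CPM in conditioned WT libraries, and at 268, 247 and 249 against 511, 606 and 557 CPM in KO. The groups did not overlap, and the log2 changes were 1.21 (SE 0.16) and 1.13 (SE 0.14). Tpp1, which removes tripeptides, rose by 1.17 (SE 0.21) in WT and 1.20 (SE 0.18) in KO, from 331 and 310.1 to 780.2, 751 and 632 CPM and from 343, 242 and 225 to 691, 622 and 539.5 CPM. Its unconditioned KO library 0 was the highest of its group, but below every conditioned library. Ctsz, a carboxypeptidase of the papain family, moved less but with little spread, from 175 and 158 to 259, 247 and 250.2 CPM in WT and from 180.2, 179 and 172 to 259, 258 and 222 CPM in KO, by 0.60 (SE 0.11) and 0.48 (SE 0.10).

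For Ctsd, both 7-letter or longer matches lie upstream of the start, and its level was 1776 and 1543 against 3073, 3686 and 2269 CPM in WT and 1661, 1786 and 1826 against 2568, 2992 and 2532 CPM in KO. No conditioned library overlapped an unconditioned one, yet the log2 differences of 0.86 (SE 0.22) and 0.62 (SE 0.19) were not called. Ctsb, a cysteine protease, stood at 1474 and 1290.0 against 2352, 2079.8 and 2217 CPM in WT, a log2 difference of 0.68 (SE 0.25) that was not called. In KO it had 1448, 1387 and 1281 CPM unconditioned and 2281, 1439 and 1206 CPM conditioned, so that only library 0 was high and the groups overlapped (0.26 (SE 0.22)).

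Ctsh, an aminopeptidase, was named after its values were seen, as 1 of the 2 members called lower in KO. Its libraries held 54.98 and 63.04 CPM unconditioned and 44.6, 41.1 and 48.7 CPM conditioned in WT, and 54.2, 73.2 and 72.6 against 43.9, 27.3 and 22.4 CPM in KO. All conditioned libraries were lower in both genotypes, with log2 changes of -1.10 (SE 0.23) in KO, which was called, and -0.40 (SE 0.25) in WT, which was not. The call in KO was lost without conditioned KO library 1 and without unconditioned KO library 1 or 2. Ctsl, a further cysteine protease, had differences of 0.55 (SE 0.19) and 0.46 (SE 0.17), and Ctsf of 0.32 (SE 0.22) and -0.10 (SE 0.20), none called.

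Glycosidases, which trim sugars from glycoproteins, glycolipids and glycogen, held the largest rises in the list. Of 9 members 4 were called higher in WT (Gla, Hexa, Gaa and Aga) and 5 in KO, the same 4 and Neu1. All 9 differences were positive in both genotypes. Gla, the alpha-galactosidase that removes terminal galactose from globo-series lipids (XLOC_025190, chrX:134588169-134601005, GRCm38), stood at 33.96 and 36.2 CPM in unconditioned and 184, 109.8 and 116 CPM in conditioned WT libraries. In KO it had 39.7, 24.9 and 27.3 against 117, 147 and 152 CPM. Every conditioned library was more than any unconditioned one, and the log2 changes of 1.96 (SE 0.28) and 2.18 (SE 0.24) correspond to 3.89-fold and 4.53-fold.

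Neu1, the lysosomal sialidase (XLOC_009300, chr17:34931253-34937297), had 13.3 and 11.6 CPM unconditioned and 44.9, 55.3 and 30.03 CPM conditioned in WT, and 11.2, 14.5 and 14.8 against 30.98, 86.5 and 85.7 CPM in KO. Conditioned KO library 0 lay with the WT libraries and libraries 1 and 2 far above them. The log2 change of 2.33 (SE 0.37) in KO was called, and that of 1.8 (SE 0.43) in WT was not, although all libraries were separated there too. Hexa, a glycosidase that acts on a ganglioside (XLOC_023199, chr9:59539667-59565105), rose from 118 and 106 to 388, 416 and 281 CPM in WT and from 109.7, 148 and 153 to 295, 389 and 368 CPM in KO, by 1.69 (SE 0.22) and 1.36 (SE 0.19). Conditioned WT library 2 and KO library 0 were the lowest conditioned ones, both above all unconditioned libraries.

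Gaa, the acid alpha-glucosidase that degrades glycogen, rose from 295 and 271 to 582, 734 and 467 CPM in WT and from 265, 323 and 359 to 518, 697 and 633 CPM in KO, with log2 changes of 1.07 (SE 0.22) and 0.96 (SE 0.19). Aga, which splits asparagine from glycans, went from 93.2 and 89.4 to 141, 145 and 119.9 CPM and from 90.4, 85.2 and 77.7 to 133, 139 and 126 CPM, by 0.57 (SE 0.12) and 0.65 (SE 0.10). Its groups were well apart despite the modest size. Manba and Man2b1, both mannosidases, and Glb1, a galactosidase, were called only in the average of the genotypes, at 0.76, 0.52 and 0.26, and Fuca1, a fucosidase, stood at 0.14 (SE 0.13) and 0.05 (SE 0.11). Glb1 and Tmppe share a locus in the table, so their fragments cannot be told apart.

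Genes of glycosaminoglycan degradation had the smallest median of the roles in both genotypes. Of the 8, only Idua was called higher in WT and in KO, although 7 differences were positive in WT and 5 in KO. The median log2 difference of the class was 0.42 in WT and 0.19 in KO. Idua, the iduronidase that acts on heparan and dermatan sulfate, stood at 24.04 and 21.7 CPM against 43.6, 53.8 and 35.2 CPM in WT and 20.5, 22.8 and 24.9 against 43.4, 42.8 and 40.9 CPM in KO, a rise of 0.95 (SE 0.17) and 0.90 (SE 0.15). Its conditioned KO libraries were close together, library 0 included.

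Ids, the iduronate sulfatase that acts one step earlier, was not called. It had 149 and 169 CPM unconditioned and 146, 138 and 148 CPM conditioned in WT, and 183, 137 and 124 against 164, 83.5 and 64.02 CPM in KO, with log2 differences of -0.14 (SE 0.33) and -0.51 (SE 0.30). Conditioned KO libraries 1 and 2 were the lowest of all 11, and library 0 was above every conditioned WT library. Gusb, the beta-glucuronidase, had 101 and 95.5 against 141, 113 and 128 CPM in WT and 101, 107 and 97.9 against 131, 126 and 113 CPM in KO, with every conditioned library higher and differences of 0.37 (SE 0.12) and 0.28 (SE 0.11), called only as the average of both (0.33). Sgsh, a sulfamidase, was called in the average as well (0.59). Naglu, Hgsnat, Arsb and Galns, which act on heparan, dermatan or keratan sulfate, were not called in any medium comparison, with log2 differences from -0.21 to 0.78.

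Lipid degradation and export, with 10 members, included 4 called higher in WT (Asah1, Npc1, Ppt1 and Psap). In KO 6 were called higher, the same 4 with Lipa and Smpd1, while Pla2g15 was called lower. Psap, the precursor of the saposins that present lipids to hydrolases, was the most abundant per length at 592 FPKM. Its libraries had 1319 and 1104 CPM unconditioned and 2368, 2385 and 2184 CPM conditioned in WT, and 1321, 1239 and 1255 against 2332, 1803 and 1592 CPM in KO. All were separated, by 0.93 (SE 0.19) in WT and 0.59 (SE 0.17) in KO, and conditioned KO library 0 reached the WT level.

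Asah1, the acid ceramidase, rose from 264 and 256 to 675, 679 and 479 CPM in WT and from 257, 285 and 296 to 523, 565 and 499 CPM in KO, by 1.23 (SE 0.17) and 0.92 (SE 0.15). Npc1, the membrane protein that exports cholesterol, went from 88.9 and 93.5 to 172, 172 and 158 CPM and from 95.2, 74.5 and 83.2 to 149, 161 and 169.6 CPM, by 0.88 (SE 0.12) and 0.92 (SE 0.11). Neither gene had any overlap between media. Npc2, the soluble partner that hands cholesterol to Npc1, had 505 and 485 against 843, 746 and 775 CPM in WT and 544, 487 and 479 against 815, 671 and 578 CPM in KO. It was separated in both genotypes, but the differences of 0.67 (SE 0.16) and 0.45 (SE 0.14) were called only on average (0.56). Ppt1, a thioesterase that removes palmitate from proteins, rose from 94.4 and 90.2 to 159.7, 144 and 152 CPM and from 98.2, 88.3 and 86.6 to 146, 139 and 132 CPM, by 0.72 (SE 0.10) and 0.61 (SE 0.09).

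Pla2g15, the lysosomal phospholipase A2, ran against its class. It stood at 66.1 and 61.6 CPM unconditioned and 48.9, 41.9 and 49.3 CPM conditioned in WT, and at 76.01, 78.1 and 68.4 against 53.4, 39.7 and 37.99 CPM in KO. Every conditioned library was lower, with a called change of -0.76 (SE 0.14) in KO and an uncalled -0.45 (SE 0.15) in WT; the KO call was lost without KO library 1 of either medium. Lipa, the acid lipase, rose in KO by 0.73 (SE 0.20). Arsa and Gm2a, which act on sulfatide and on a ganglioside, were called only in the average (0.49 and 0.47).

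Membrane proteins had the highest median difference between media of the roles in both genotypes, 1.26 in KO and 1.05 in WT. Glycosidases were close to them in WT, at 1.02. Of 9, Lamp1, Clcn7 and Ostm1 were called higher in WT, and these with Cln3 and Mcoln1 in KO. Lamp1, the most abundant protein of the lysosomal membrane, had the second highest level of the list per length, 599 FPKM (XLOC_021650, chr8:13159135-13175338). It rose from 967 and 889.8 to 2245, 2182 and 1769 CPM in WT and from 969, 725 and 727 to 1795, 2079 and 2029 CPM in KO, by 1.15 (SE 0.20) and 1.29 (SE 0.17). Its unconditioned KO libraries 1 and 2 were the lowest and library 0 was level with WT.

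Lamp2, its relative, moved less, with 961 and 809 against 1312, 1532 and 1038 CPM in WT and 774, 1042 and 1126 against 1198, 1392 and 1292 CPM in KO. The groups were separated, and the differences of 0.55 (SE 0.22) and 0.40 (SE 0.19) were called only as an average of 0.47.

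Clcn7, a chloride-proton exchanger, and Ostm1, its partner subunit, are both needed for bone resorption by osteoclasts. Clcn7 had 59.4 and 58.4 CPM unconditioned and 148, 161 and 109 CPM conditioned in WT, and 63.6, 49.5 and 49.6 against 111, 183 and 197 CPM in KO, a rise of 1.24 (SE 0.26) and 1.59 (SE 0.22). Ostm1 had 45.8 and 44.1 against 96.1, 109.7 and 73.3 CPM in WT and 44.2, 44.3 and 47.4 against 79.9, 121 and 125 CPM in KO, a rise of 1.05 (SE 0.21) and 1.26 (SE 0.19). In both genes conditioned WT library 2 and KO library 0 were the lowest of their groups, and none overlapped the unconditioned libraries.

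Mcoln1, the cation channel that releases calcium from lysosomes, stood at 30.5 and 27.96 CPM against 78.1, 82.5 and 50.6 CPM in WT and at 25.1, 21.8 and 19.7 against 47.96, 88.6 and 87.2 CPM in KO. The separation was complete in both, with a called 1.75 (SE 0.26) in KO and an uncalled 1.27 (SE 0.29) in WT. Cln3, a membrane protein lost in a childhood storage disease, was scarce, with 6.37 and 5.66 CPM against 14.4, 13.6 and 10.8 CPM in WT and 6.35, 3.81 and 3.97 against 11.3, 11.7 and 14.1 CPM in KO. It was called in KO at 1.39 (SE 0.22) and not in WT at 1.11 (SE 0.25). Scarb2, a receptor that carries an enzyme to lysosomes, and the tetraspanin Cd63 were called in the average (0.42 and 0.42). Cd68, a macrophage glycoprotein, was near the lower end of the list at 3.55 to 13.9 CPM and overlapped between media.

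Grn, the precursor of the granulins, rose from 270.3 and 283 to 542, 630.5 and 501 CPM in WT and from 288, 253 and 267 to 505, 748 and 719 CPM in KO, by 1.01 (SE 0.19) and 1.29 (SE 0.17). Its 2 highest libraries were conditioned KO libraries 1 and 2. Acp2, the lysosomal acid phosphatase, had 87.3 and 80.02 against 98.03, 108 and 86.8 CPM in WT and 83.7, 77.5 and 85.4 against 98.8, 94.7 and 89.3 CPM in KO, and was not called (0.22 (SE 0.12) and 0.20 (SE 0.10)). The libraries do not mark the strand, so fragments cannot be told apart where exons of other genes lie on the opposite strand, as for Ctsb, Acp2, Ctsa, Npc1, Sgsh and Cln3 over 442 to 955 shared bases each with the coding genes Fdft1, Ddb2, Pltp, Rmc1, Card14 and Apobr. Ctsd also shares 808 exon bases with Gm49369 on the same strand, and Ctsl 395 with the pseudogene Gm49230.

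**Figure D4:**
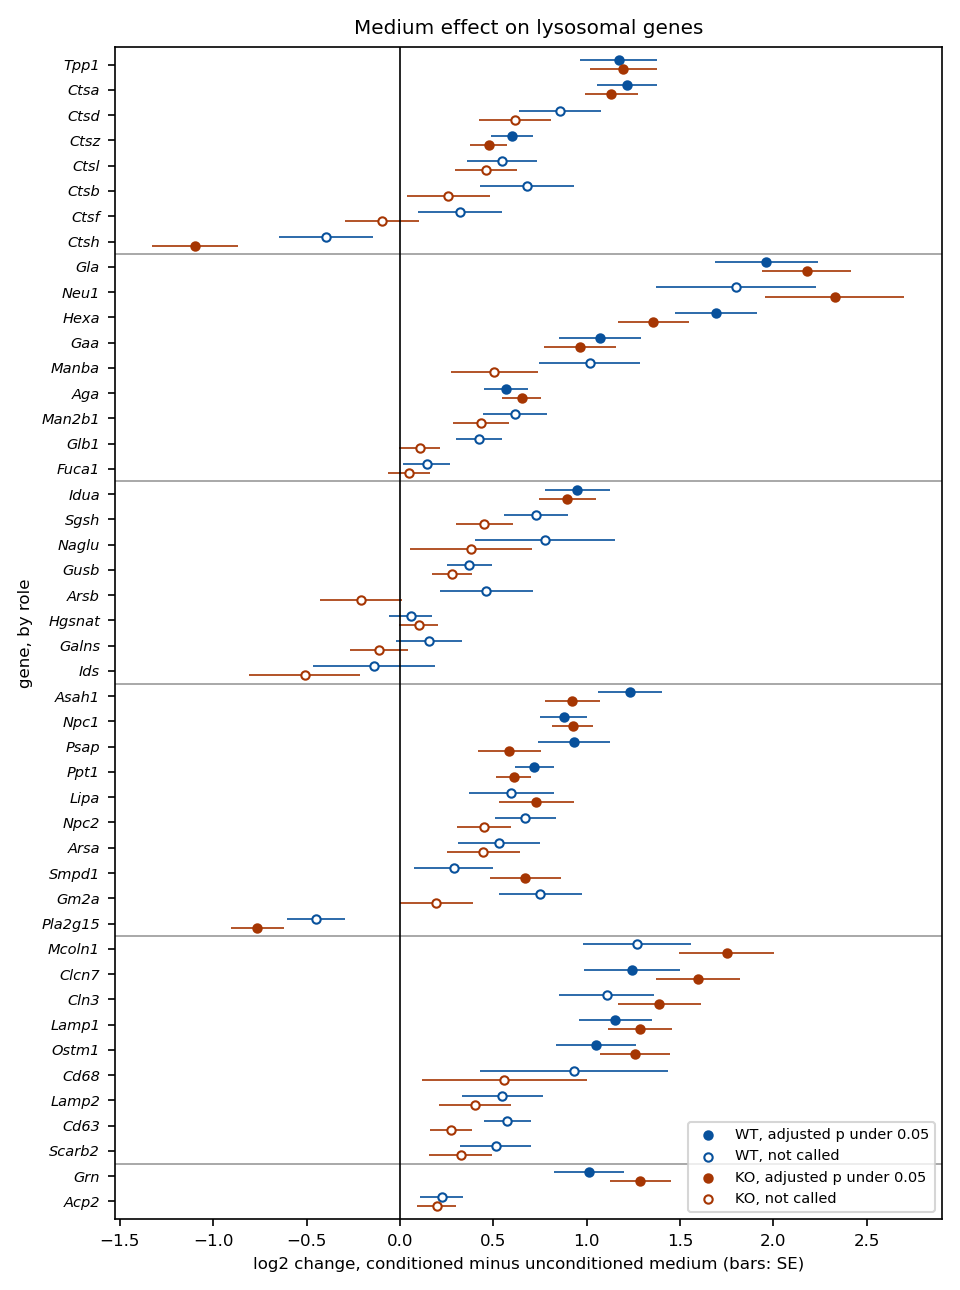
Log2 change between conditioned and unconditioned medium for each member, grouped by role, in WT (blue) and KO (brown); bars are standard errors and filled points were called over all genes. Values run from -0.45 to 1.96 in WT and from -1.10 to 2.33 in KO.

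No member was called between KO and WT with all 11 libraries. The list was drawn up with earlier results of all 4 groups known, so these differences are a description too. In unconditioned medium 0 of 46 were called, beside 0.00735% of all genes. At an unadjusted p under 0.05 there were 0 members and 294 of the 13603 genes. Log2 differences of KO minus WT ran from -0.40 (Mcoln1) to 0.62 (Naglu), with a median of 0.05 and standard errors of 0.10 to 0.50. In conditioned medium 0 of 46 were called, beside 0% of all genes. Unadjusted p-values under 0.05 were found for 3 members: Fuca1 at -0.27 (SE 0.11), Ctsh at -0.53 (SE 0.23) and Smpd1 at 0.43 (SE 0.19), and for 1897 of all genes. The medium effect in KO minus that in WT was called for 0 members and 0% of all genes, with a median of -0.12 and 0 members, but 412 genes, at an unadjusted p under 0.05. DESeq2 called 0 members in these 3 comparisons, beside 0% of all genes in the interaction. The share of all genes that DESeq2 called between genotypes is not given here. These results do not show that the genotypes are alike, since differences of the size of these standard errors would not have been detected.

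The conditioned KO group was not uniform for the lysosomal genes, and library 0 decided the count between genotypes. Without it, 3 members were called higher in KO and 7 lower, beside 33.2% of all genes, 17.3% as higher and 15.9% as lower, so the share of members was below that of all genes. Smpd1, the acid sphingomyelinase, had 83.2, 143 and 148 CPM in the conditioned KO libraries and 90.8, 102 and 83.95 CPM in WT. Libraries 1 and 2 were above every WT library and library 0 was below all of them. Without library 0 the log2 difference was 0.66 (SE 0.09) by edgeR. Neu1, at 1.0 (SE 0.22), and Grn, at 0.41 (SE 0.12), were the other two called higher in that edgeR fit.

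The 7 called lower without that library were Ids, Ctsh, Ctsb, Arsb, Ctsf, Psap and Sgsh. Ids had the largest difference, -0.95 (SE 0.18) in the edgeR fit, followed by Ctsh, at -0.84 (SE 0.16). In each of Ids, Ctsh, Ctsb and Ctsf, library 0 was the highest of the conditioned KO libraries. Smpd1 at 0.61, Ctsb at -0.72 and Ctsh at -1.02 then also differed in medium effect between the genotypes, beside 10.5% of all genes, 5.22% as higher and 5.24% as lower. Without libraries 0 of both KO groups, 5 members were called higher and 11 lower between genotypes in conditioned medium, beside 42.6% of all genes (21.4% as higher and 21.1% as lower). In the interaction it was 1 and 6, beside 19.2% (9.52% and 9.71%), and in unconditioned medium 0 members, beside 4.86% (2.13% and 2.74%). Whether library 0 or libraries 1 and 2 carry the genotype as labelled was not tested.

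**Figure D5:**
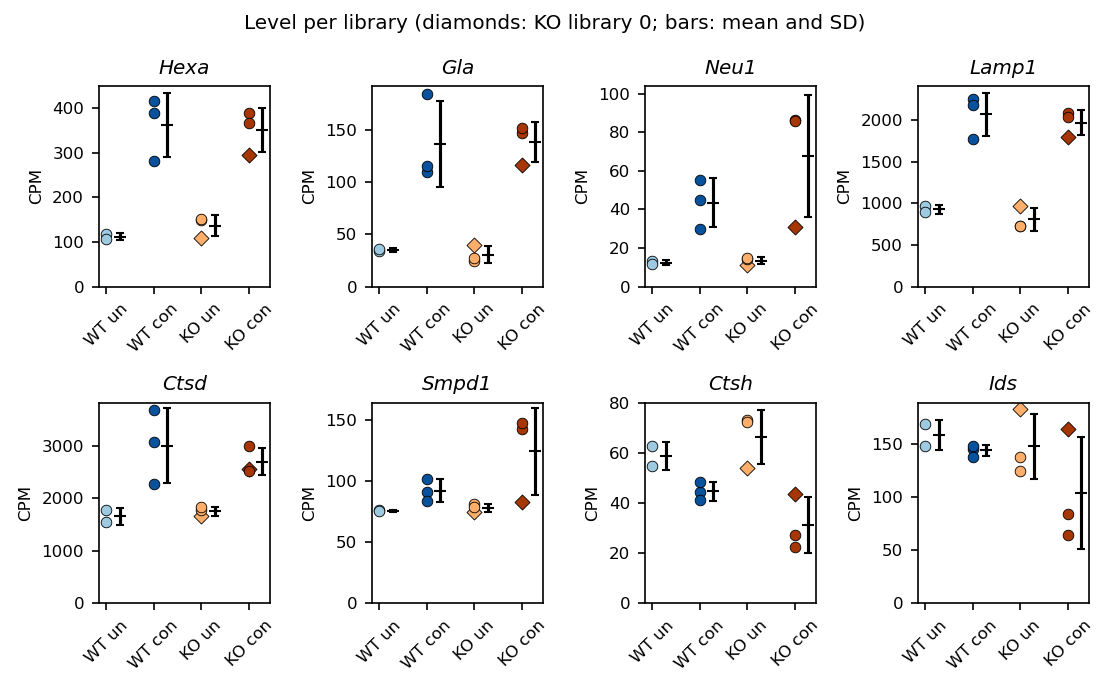
CPM of 8 members in each library, with the group mean and SD beside the points; WT un, WT con, KO un and KO con stand for unconditioned and conditioned medium, and diamonds mark the KO libraries 0. Hexa, Gla, Neu1, Lamp1 and Ctsd are separated by medium in both genotypes, and for Smpd1, Neu1, Ctsh and Ids the diamond of the conditioned KO group lies apart from the other points of that group.

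Other genes of the same organelle were read from lists written with these results known. Ctsk and Acp5 were in the first of these and also among the osteoclast markers above, so the calls of Ctsk are counted in both places. Over 37 further lysosomal genes, the median log2 differences were 0.40 in WT and 0.35 in KO. Called higher were 7 in WT and 18 in KO, and lower 0 in either, where 1.23% and 9.68% of all genes were called higher. In WT these included Dpp7, a dipeptidyl peptidase, at 2.19 (SE 0.32) and the cystine exporter Ctns at 1.5 (SE 0.28), along with Plbd2 (0.70 (SE 0.13)) and Tmem192 (1.15 (SE 0.21)). Those in KO included Dpp7 at 2.26 (SE 0.28), Tmem192 at 1.43 (SE 0.18), Ctns at 1.86 (SE 0.25) and the amino acid carrier Slc36a1 at 1.21 (SE 0.19). Without a single library the WT count ran from 0 to 15 and the KO count from 8 to 20.

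Of 16 genes that deliver proteins to lysosomes, 3 were called higher in WT and 9 in KO, beside the same 1.23% and 9.68% of all genes. In both genotypes 0 were called lower. In WT they were the adaptor Gga2 at 0.98 (SE 0.17), the retromer subunit Vps35 at 0.62 (SE 0.11) and the mannose 6-phosphate receptor Igf2r at 0.81 (SE 0.16). In KO the 6 with the smallest adjusted p were Vps18 at 1.07 (SE 0.17), Vps35 at 0.55 (SE 0.10), Rab7 at 0.75 (SE 0.14), Nagpa at 1.11 (SE 0.21), Gnptg at 1.15 (SE 0.22) and Arl8b at 1.07 (SE 0.21). Nagpa and Gnptg take part in making the mannose 6-phosphate tag, and Rab7, Arl8b and Vps18 in late endosome and lysosome traffic. Without a single library these counts ran from 0 to 7 in WT and from 1 to 10 in KO.

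The authors' deposited table of tests per start-site group gave 27 members higher and 0 lower in conditioned WT, beside 8.76% of all such tests. Members are counted as genes, here from 53 tests on 46 genes, and the shares are of tests in either direction. In the deposited data, unconditioned WT libraries 0 and 1 stood as separate libraries and were not merged as above. For KO the authors' deposited table gave 18 higher and 2 lower, the latter again Ctsh and Pla2g15, beside 16.8%. Between genotypes it gave only Naglu, higher in unconditioned KO (2.21% of all tests), and Neu1, higher in conditioned KO (7.2%). The authors' deposited tables of start-site use and isoform use held no significant test for a member in any comparison, with 6 and 10 members tested.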

How the data were processed

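RNA of 12 cultures was sequenced with a kit that does not mark the strand. CASAVA 1.8.2, TopHat2 2.0.9 and Cufflinks and Cuffdiff 2.1.1 were used, per the submitters' processing notes, with GRCm38. The authors deposited estimated counts (raw fragments per gene and library, 94.3% of them whole numbers), FPKM values scaled between libraries by Cuffdiff, and tests between conditions with log2 fold changes, p-values and q-values, per the file headers. The roles the programs played are named only as far as the headers go.

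The estimated counts were rounded to whole numbers. Rows without a gene symbol (1714 of 25511, holding 2.69% to 3.10% of fragments) were left out, and filterByExpr kept 13603 of 23797 genes. Groups were fitted together with edgeR 4.0.16 (R 4.3.3), TMM scaling and the quasi-likelihood test on 11 libraries, with 7 residual degrees of freedom and Benjamini-Hochberg adjustment over all genes tested. Contrasts were medium within each genotype and on average, genotype within each medium, and their interaction. CPM are TMM-scaled. DESeq2 1.42.0, limma 3.58.1 on log2 FPKM plus 1 or 0.1, other scaling, no filter, all 12 libraries and leaving out each library were alternatives. A fit without both KO libraries 0 and a fit with the deposited library number as a block were added after seeing the data. The fit was checked on simulated counts.

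Members and lists were chosen with earlier results of these data known. Values in every library are given for the 20 called members with the smallest adjusted p and the 2 of each role with the highest mean CPM, 27 in all; other genes were named after their values were seen. From each pathway list, at most 6 called genes per comparison, by adjusted p, are named; some genes that this rule picks are not reported here. The 12 libraries are rows of one table that gives a condition and a number, so they were assigned to groups but not to single samples.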

Additional observations from a re-analysis of the deposited data

How the results depend on the processing

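No called change of a member changed sign under any alternative run. Some uncalled values did, among them Ctsb (-0.05 to 0.45) and Glb1 (-0.01 to 0.20) in KO and Ctsf (-0.04 to 0.21) and Arsb (-0.07 to 0.21) in the average, and so did the median between genotypes in unconditioned medium (-0.01 to 0.10). The count of members called higher in WT was 16 with the main settings, beside 1.23% of all genes, and 28 with DESeq2, beside 3.32%. It was 27 with all 12 libraries, beside 3.76%, and 29 without both KO libraries 0, beside 5.75%. Without those, 1 was called lower in WT and 4 in KO, beside 5.98% and 25% of all genes. That last setting also gave 5 higher and 11 lower between genotypes in conditioned medium, beside 21.4% and 21.1% of all genes. In the interaction it gave 1 and 6, beside 9.52% and 9.71%. Leaving out 1 library at a time gave 0 to 26 members higher and 0 to 1 lower in WT, 16 to 25 and 0 to 3 in KO, and 21 to 35 and 1 to 3 on average. It gave 0 in either direction between genotypes in unconditioned medium, 0 to 3 and 0 to 7 in conditioned medium, and 0 to 1 and 0 to 2 in the interaction; the causes were not tested. Where leaving out 1 library kept 2 or more in each group, 0.0959% to 3.56% of all genes were called higher in WT. In KO it was 1.56% to 22.9%, and on average 6.06% to 20.9%. Lower calls made up 0.0148% to 3.19%, 0.799% to 21.9% and 6.07% to 20.7%. The counts of 3 and 7 and of 1 and 2 came without conditioned KO library 0, beside 17.3% and 15.9%, and 5.22% and 5.24%, of all genes. RLE scaling, no filter on low counts and limma left all counts within 1.5 times the main ones. A fit with the deposited library number as a replicate block within genotype was added after seeing the data. It gave 18 members higher and 0 lower in WT, beside 1.33% and 1.46% of all genes. In KO it gave 27 and 3, beside 10.3% and 11.8%, and on average 34 and 2, beside 11.2% and 12.6%. In the interaction it gave 0, beside 0%. Clcn7 in WT and Glb1 on average were no longer called. Sample titles use the same numbers in both media, which may mark pairs, but nothing ties the library numbers to them. The merged WT library shared a block with conditioned libraries 0 and 1. Across genes, the deviations from group means of same-numbered KO libraries correlated at 0.35, 0.24 and 0.32. For WT libraries the values were -0.15, 0.48 and 0.44. With 2 distinct unconditioned WT libraries, whose deviations mirror each other, these WT values are not separate evidence. Conditioned KO library 1 correlated at 0.28 with unconditioned library 2. These values do not settle whether the libraries are pairs, and the main fit did not pair them. With 2 or 3 distinct libraries a group, small differences between genotypes could not be detected.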

Other observations

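Isoform values were read for 18 members that have more than 1 isoform in the annotation used by the authors. Lamp2, which encodes membrane proteins with different tails, had nearly all of its FPKM on isoforms of 1788 and 3614 bases. Of the summed Lamp2 FPKM in WT, the 1788-base isoform held 41.8 and 43.3% without conditioning and 45.1, 40.6 and 45.2% with it. In KO it held 39.5, 31.9 and 32.3% unconditioned and 41.4, 31.1 and 33.1% conditioned. KO libraries 1 and 2 of both media lay below all the others, and the unconditioned KO library 0, at 39.5%, was just under the lowest WT value. These are shares that Cuffdiff estimated from fragments that isoforms have in common, given with no test of their own.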
